A study of Mus musculus with 59 samples.

Results

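The 10 immediate early genes Fos, Fosb, Jun, Junb, Egr1, Npas4, Arc, Nr4a1, Ier2 and Dusp1 were taken by symbol from the 20689 genes measured, and all 10 were present. They were described over 59 single mouse cells labelled as chemical-induced neurons, from a series on chemical reprogramming of astrocytes in the living brain. Every cell carries an age label of 12 weeks, and its content was drawn through a patch pipette in vivo before sequencing. The chemicals given, the strain, the brain region and the animals are not named in the labels, so the 59 cells form 1 group and count as 1 sample. Native neurons, astrocytes and untreated cells were not analysed here, and nothing in the labels says that cells came from separate animals. No test between groups was therefore possible, and spreads and correlations below describe these cells alone.

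Immediate early genes are transcribed within minutes of a stimulus, without the need for new protein synthesis, because the factors that bind their promoters are already in the cell and are switched on by phosphorylation. In neurons, calcium entry and growth factor signalling act through CREB, SRF and its ETS partners and MEF2, and the transcripts serve as a standard readout of recent activity. Most of these genes respond to growth factors, cytokines, stress and injury in nearly every cell type, glia included, whereas Npas4 is restricted largely to neurons and responds to calcium entry. Fos and Jun family proteins pair into the transcription factor AP-1, Egr1 and Nr4a1 are further DNA-binding factors, Arc is a postsynaptic protein that drives removal of AMPA receptors, Ier2 is a nuclear protein, and Dusp1 is a phosphatase that switches off MAP kinases.

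Promoter sequence was available for 7 of the 10 genes in the RefSeq table used (build GRCm38.p6), and Egr1, Arc and Ier2 are named only. The 250 bases before the RefSeq start of Fos, Jun, Npas4 and Dusp1 are printed because these genes behave differently across the cells: Fos and Jun varied together, Npas4 was found in few cells, and Dusp1 is the feedback gene with a large spread. The windows lie at chr12:85473640-85473889 on the plus strand (Fos), and on the minus strand at chr4:95052223-95052472 (Jun), chr19:4989972-4990221 (Npas4) and chr17:26508473-26508722 (Dusp1). Each is written 5′ to 3′ on the gene's strand. Capitals mark TGACG, the core of the cAMP response element, on either strand (CGTCA on the other), and TATAA on the printed strand.
Fos: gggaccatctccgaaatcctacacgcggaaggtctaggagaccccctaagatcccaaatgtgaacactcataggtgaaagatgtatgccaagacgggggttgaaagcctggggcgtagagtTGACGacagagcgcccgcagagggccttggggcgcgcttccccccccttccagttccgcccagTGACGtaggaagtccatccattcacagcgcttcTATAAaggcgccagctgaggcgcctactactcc
Jun: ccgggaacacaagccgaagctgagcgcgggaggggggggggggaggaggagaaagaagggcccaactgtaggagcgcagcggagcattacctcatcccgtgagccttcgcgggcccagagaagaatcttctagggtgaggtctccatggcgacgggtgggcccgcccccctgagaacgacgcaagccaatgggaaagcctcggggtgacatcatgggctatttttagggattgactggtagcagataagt
Npas4: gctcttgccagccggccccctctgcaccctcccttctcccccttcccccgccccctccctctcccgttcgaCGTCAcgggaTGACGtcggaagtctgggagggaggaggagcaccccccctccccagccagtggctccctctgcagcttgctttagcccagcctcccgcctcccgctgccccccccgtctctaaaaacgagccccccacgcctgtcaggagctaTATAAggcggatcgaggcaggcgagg
Dusp1: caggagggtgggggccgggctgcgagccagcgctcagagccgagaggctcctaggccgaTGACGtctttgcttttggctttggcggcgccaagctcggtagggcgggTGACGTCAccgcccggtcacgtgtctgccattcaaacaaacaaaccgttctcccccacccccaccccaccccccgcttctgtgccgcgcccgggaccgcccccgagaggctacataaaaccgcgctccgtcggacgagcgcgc

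TGACG occurred on either strand in 6 of the 7 windows, against 17.8% of 32851 RefSeq windows of the same length. In Fos it lies at 129 to 125 and at 66 to 62 bases before the start, with TATAA at 33 to 29. In Npas4 it lies at 179 to 175 and at 169 to 165, with TATAA at 26 to 22. Dusp1 holds the full palindrome TGACGTCA at 143 to 136, which contains TGACG on both strands, and a further TGACG at 191 to 187. Fosb, Junb and Nr4a1 also hold TGACG, and the Jun window holds none. TGACGTCA was found in 1 of the 7 windows and in 1.55% of all windows, and TATAA, on the printed strand, in 2 of 7 and 16.0%. The AP-1 motif TGANTCA, on either strand, was found in 0 of 7 and in 6.75% of all windows, and the CArG box bound by SRF, on either strand, in 0 of 7 and 1.47%. These matches describe the letters in the windows and are not evidence of binding. Sites further upstream, variant spellings of the motifs and the genes without a window were not searched. A count of 0 of 7 therefore does not mean that these genes lack such sites.

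The cells held RNA of several cell types. All 12 neuronal markers were detected in at least 50% of cells, with a summed level of 0 to 3021 FPKM (fragments per kilobase of gene model, corrected for library depth), and 2 cells had all 12 at 0. Of 10 oligodendrocyte markers, 9 were detected in at least 50% of cells, and their summed level was 14.6 to 29150 FPKM, with no cell at 0 for all of them. Of 13 microglia markers, 8 were detected in at least 50% of cells, with a summed level of 0 to 38453 FPKM and 4 cells at 0 for all, and of 13 astrocyte markers, 8 were. A gene is called detected at 1 FPKM or more. Depth recovered from the values was 29043 to 2950402 fragments per cell, and 475 to 10310 genes were detected per cell.

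Immediate early transcripts were abundant and widespread. Of the 10 genes, 8 were detected in at least 50% of cells, against 11.7% of all genes, and their median detection was 78.0% of cells against 11.9% for all genes. Npas4 and Arc were the other two. Intervals on shares of cells are exact Clopper-Pearson 95% intervals, and they and the limits at 0 cover counting error only, since reads without molecular identifiers are not independent molecules.

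**Figure D1:**
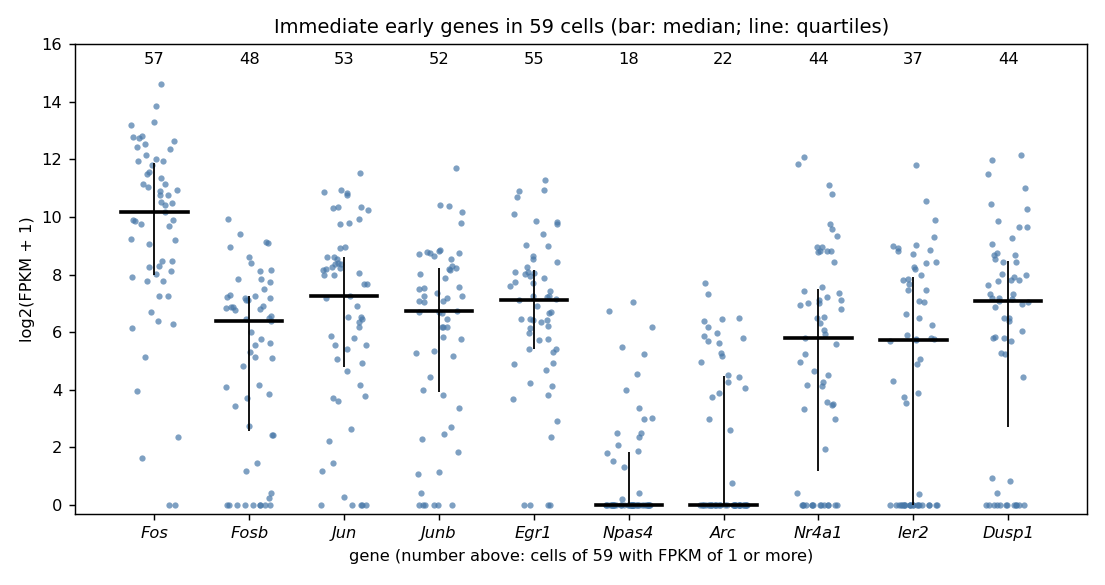
Level of each of the 10 genes in the 59 cells, as log2(FPKM + 1), with 1 point per cell, a bar at the median and a line between the quartiles. Numbers above the columns count the cells with 1 FPKM or more, from 57 for Fos to 18 for Npas4.

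Among the AP-1 genes, Fos, the inducible partner of the Jun proteins, was the most abundant. Fos ranged from 0 to 25153 FPKM with a median of 1160, and was detected in 57 of 59 cells (96.6%, interval 88.3 to 99.6). Its level differed widely between cells, with quartiles of 250 and 3739 FPKM, and cell 1 stood above the next cell, cell 38, at 14816 FPKM. In 27 cells Fos was among the 20 most abundant genes, and in cell 1 it took 7.52% of all gene FPKM. The 2 cells without a Fos fragment were cells 5 and 42, where 3 fragments would have given 10.2 and 3.09 FPKM, so a level below these cannot be told from 0. Fos lies on chromosome 12 at 85473890 to 85477273 (GENCODE M21, GRCm38), and all gene positions given here are from that annotation.

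Fosb, a Fos paralogue whose truncated form accumulates with repeated stimulation, was lower. It ranged from 0 to 967 FPKM with a median of 82.6 and was detected in 48 cells (81.4%, 69.1 to 90.3). In the 47 cells with both genes, Fos exceeded Fosb by a median of 18.8-fold (quartiles 9.76 and 35.8), and Fos was the higher in 46 of them. Fosb lies on chromosome 7 at 19302696 to 19310051. Cell 1 was also the highest for Fosb.

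Jun, the partner that binds DNA with Fos and can also pair with itself, ranged from 0 to 2932 FPKM with a median of 151 and was detected in 53 cells (89.8%, 79.2 to 96.2). Junb, a paralogue that often restrains Jun, ranged from 0 to 3333 FPKM with a median of 105 and was detected in 52 cells (88.1%, 77.1 to 95.1). The levels of the 2 Jun genes overlapped over nearly their whole ranges. In the 49 cells with both, Jun was the higher in 35 and the median ratio of Jun to Junb was 1.51 (quartiles 0.909 and 3.19). Jun is a single-exon gene on chromosome 4 at 95049034 to 95052222, and Junb lies on chromosome 8 at 84974484 to 84978718. A Fos family and a Jun family transcript were detected together in 55 cells, and all 4 AP-1 genes in 46.

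Egr1, a zinc finger factor induced by SRF signalling, was the steadiest of the 8 common genes. It ranged from 0 to 2462 FPKM with a median of 137 and was detected in 55 cells (93.2%, 83.5 to 98.1). Its SD on the log2(FPKM + 1) scale was 2.69, which was 0.14 below the trend of genes with the same mean. Egr1 lies on chromosome 18 at 34859823 to 34864984. Nr4a1, an orphan nuclear receptor, was patchier: it ranged from 0 to 4278 FPKM with a median of 54.5, and was detected in 44 cells (74.6%, 61.6 to 85.0). Its SD of 3.67 was 0.74 above the trend, which placed it at rank 113 of 8042 genes by excess spread. The highest value, in cell 53, rested on 13960 fragments, and the next was 3685 FPKM in cell 62. Nr4a1 lies on chromosome 15 at 101254269 to 101274795.

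The 2 genes most tied to neuronal activity were the least detected. Npas4, a neuronal factor that controls inhibitory synapses, ranged from 0 to 131 FPKM with a median of 0 and was detected in 18 cells (30.5%, 19.2 to 43.9), or in 10 cells (16.9%) at 5 FPKM or more. Its highest cell was cell 61, with 538 fragments, and where it was detected its median was 7.11 FPKM. In the 39 cells at 0, the level that 3 fragments would give ran from 0.312 to 31.5 FPKM, so in the shallowest cells a level like that of most positive cells could not have been seen. Arc ranged from 0 to 206 FPKM with a median of 0 and was detected in 22 cells (37.3%, 25.0 to 50.9), with a median of 43.1 FPKM where detected. The 36 cells at 0 for Arc had limits of 0.333 to 33.8 FPKM. Npas4 lies on chromosome 19 at 4984355 to 4990316 and Arc on chromosome 15 at 74669083 to 74672570. Both were detected together in 8 cells, Npas4 without Arc in 10, Arc without Npas4 in 14 and neither in 27.

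Ier2 and Dusp1 had the largest spread for their level. Ier2 ranged from 0 to 3605 FPKM with a median of 51.7 and was detected in 37 cells (62.7%, 49.1 to 75.0). Dusp1 ranged from 0 to 4487 FPKM with a median of 134 and was detected in 44 cells (74.6%, 61.6 to 85.0), and its 2 highest cells were cell 1 and cell 4 (4054 FPKM). For both genes the SD was 0.90 above the trend on the log2 scale, at ranks 60 and 58 of 8042. Levels in cells with Dusp1 started at 20.8 FPKM, and 3 further cells had a value above 0 but below 1 FPKM. Ier2 is a single-exon gene on chromosome 8 at 84661331 to 84662852. Dusp1 lies on chromosome 17, where GENCODE gives 26505590 to 26562128, a span that reaches well upstream of the RefSeq start used for the printed window. The Npas4 and Nr4a1 windows also lie within the GENCODE spans of their genes, and the Fosb window overlaps the edge of its gene.

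Most cells held most of the genes. A median of 8 of the 10 was detected per cell, 44 cells had at least 7, 50 had at least 5, and 5 cells had all 10. The 8 genes other than Npas4 and Arc were all present in 28 cells. Fos was the most abundant of the 10 in 48 cells, and Egr1 in 3, Jun, Junb and Nr4a1 in 2 each, and Fosb and Dusp1 in 1 each. The 10 genes together took a median of 0.607% of gene FPKM, from 0.0148 to 12.1%, and the highest share was in cell 1.

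Single cells showed how far the mixture could differ. Cell 1 held Fos at 25153, Dusp1 at 4487, Ier2 at 3605, Jun at 2932 and Egr1 at 1890 FPKM, with Npas4, Arc, C1qa and C1qb at 0 and Snap25 at 22.3 FPKM. Cell 44 lay at the other end, with Fos at 83.7 FPKM as its only detected member beside Snap25 at 687 and Syt1 at 830 FPKM. Cell 62 held Nr4a1 at 3685 FPKM with Fos at 2.14 FPKM and Jun at 0, and cell 27 held Jun at 870 FPKM with Fos at 4.20 FPKM. In these last cells Nr4a1 or Jun was high beside little Fos. Cell 1 had 92393 fragments and 1554 genes detected, cell 44 had 152391 and 1683, cell 62 had 596201 and 1074, and cell 27 had 202630 and 475. Spike-in controls took 15.6% of all FPKM in cell 1, 24.8% in cell 44, 11.0% in cell 62 and 34.7% in cell 27. The median over all cells was 3.70%. The part of depth and of the spike-in share in these profiles was not tested.

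**Figure D2:**
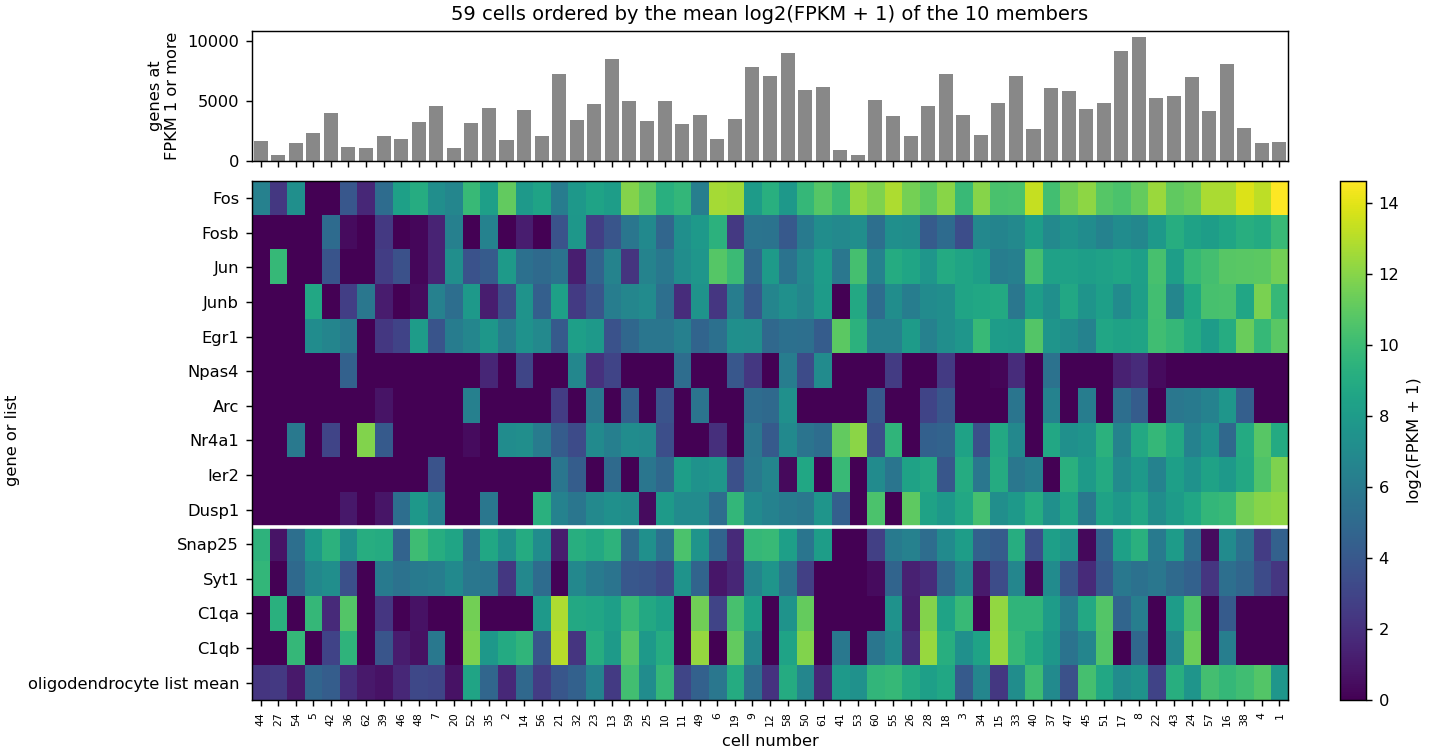
The 59 cells ordered by the mean log2(FPKM + 1) of the 10 genes, from 0.64 in cell 44 to 8.96 in cell 1, with genes detected per cell as bars on top. Colour gives the log2(FPKM + 1) of each gene and of marker transcripts and lists, and the order uses all 10 genes, Npas4 and Arc included.

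The 8 common genes varied together across cells. The median Spearman correlation over their 28 pairs was 0.53 (0.16 to 0.79), against 0.20 over pairs of the 1326 genes detected in at least 37 cells, the count of the least detected of the 8. Holding the number of genes detected per cell constant left 0.53 for these pairs and 0.06 for the other genes. The points share their library, depth and relative scaling, and no p is given. Fos and Jun, the AP-1 partners, had the highest value of 0.79, followed by Fosb with Jun at 0.69 and Fos with Fosb at 0.67. Ier2 correlated with Fosb at 0.66 and with Dusp1 at 0.62, and Fos with Dusp1 at 0.61. The weakest of the 28 pairs was Nr4a1 with Dusp1, at 0.16.

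Pairs with the sparsely detected Npas4 and Arc had low values. The 9 pairs with Npas4 had a median correlation of -0.06 (-0.14 to 0.03) and the 9 with Arc one of 0.14 (0.03 to 0.25). Npas4 with Arc gave 0.03. Over all 45 pairs the median was 0.42, against 0.22 for all pairs of the 8042 genes detected in at least 12 cells. Arc correlated with the number of genes detected at 0.57 and Npas4 at 0.41, and Fos at 0.10. The Npas4 and Arc values rest on few positive cells, and a weak correlation in values this sparse is no finding. The printed windows of Fos and Npas4 both hold TGACG and TATAA, and the Jun window holds neither. A relation of these motifs to the correlations was not tested.

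**Figure D3:**
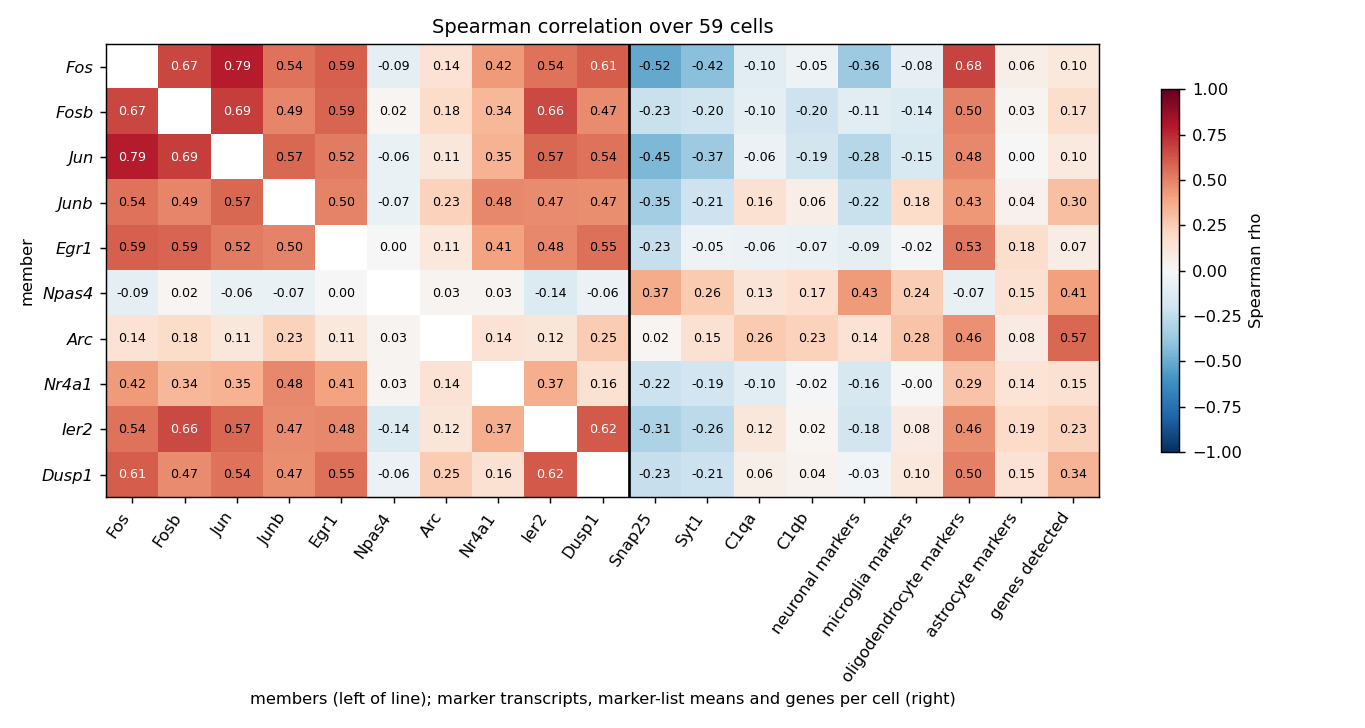
Spearman correlation over the 59 cells between the 10 genes (left of the line) and with marker transcripts, marker-list means and genes detected per cell (right). The pairs among the 8 genes other than Npas4 and Arc are all positive (0.16 to 0.79), the pairs with Npas4 lie near 0, Fos is negative with Snap25 and Syt1, and Fos is positive with the oligodendrocyte list.

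Correlations with neuronal transcripts were negative for 8 of the genes and positive for Npas4. For Arc the sign changed with genes detected held constant. Fos had a Spearman correlation of -0.52 with Snap25 and -0.42 with Syt1, 2 genes of the synaptic vesicle release machinery, and -0.48 with their mean. Among 8038 genes the median with that mean was 0.17, and 12 genes lay below Fos. Jun had -0.42, Ier2 -0.30, Junb -0.29, Dusp1 and Nr4a1 -0.22, Fosb -0.21 and Egr1 -0.13. Npas4 had 0.32, or 0.23 with genes detected held constant, and Arc had 0.10, or -0.07 with genes detected held constant. Of the 12 neuronal markers, 11 were negative with Fos (-0.52 to 0.08) and all 12 were positive with Npas4 (0.19 to 0.41). Positive values with Npas4 were common: the median over 8041 genes was 0.21, all 13 microglia markers (0.04 to 0.27) and 11 of 13 astrocyte markers were positive too, and among 8038 genes 6200 had a lower correlation with the neuronal pair than Npas4.

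Joint detection was counted as well. All 18 cells with Npas4 also had Snap25, which was detected in 91.5% of all cells. The Snap25 median was 369 FPKM in the cells with Npas4 and 42.9 FPKM in the 41 cells without Npas4. The 2 ranges overlapped (2.40 to 1426 and 0 to 1073 FPKM). The cells with Npas4 had a median of 6002 genes detected and those without had 3252, and the part of this difference in the Snap25 levels was not tested. In the 48 cells with both Snap25 and Syt1, Fos had a median of 946 FPKM (0 to 25153) and Npas4 was detected in 17 and Arc in 18. In the 8 cells with only 1 of them the Fos median was 4071 FPKM (2.14 to 10140). The 3 cells with neither had Fos at 4.20 to 5300 FPKM and no Npas4 or Arc, which leaves a share of up to 70.8% in the exact interval, and these cells had 475 to 907 genes detected. The 5 cells without Snap25 had Fos from 4.20 to 7028 FPKM, within the range of the other 54 cells.

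**Figure D4:**
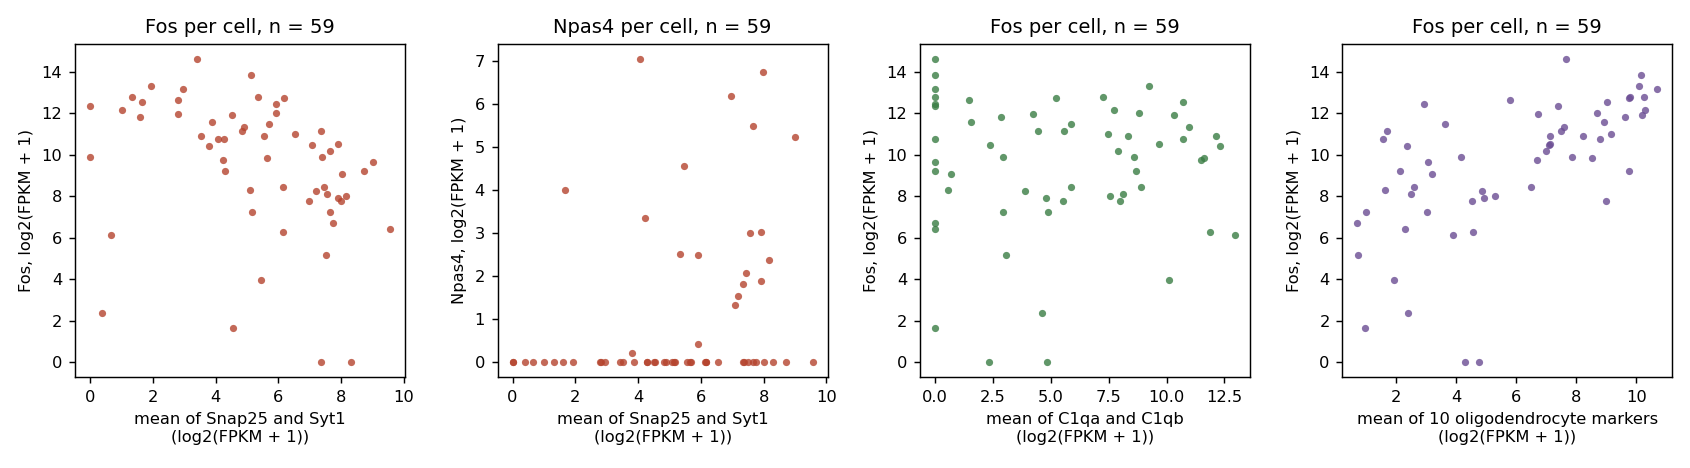
Fos and Npas4 per cell against marker levels, all as log2(FPKM + 1), with 1 point for each of the 59 cells. Fos is lower where the neuronal pair is higher and higher where the oligodendrocyte list is higher, with wide scatter, and Npas4 is at 0 in most cells.

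The mean of the microglia transcripts C1qa and C1qb, which encode chains of complement C1q, had correlations between -0.15 and 0.30 with the 10 genes. The mean of the 10 genes had a correlation of 0.04 with this C1q mean, and Fos of -0.07, beside a median of 0.16 over 8038 genes. Fosb had -0.15 and Jun -0.12, with 73 and 140 genes below them, and 373 genes lay below Fos. Arc had 0.30, which was 0.09 with genes detected held constant. Fos had a median of 1369 FPKM (0 to 10140) in the 33 cells with both C1q transcripts and 1754 FPKM (2.14 to 25153) in the 13 cells with neither, and these ranges overlapped. Fos was present in all 13 cells without C1q transcripts and in 32 of the 33 with both. Npas4 was detected in 13 of the 33 and 2 of the 13, and Arc in 17 and 3, while the median number of genes detected was 4825 and 2772. The part of that gap in genes detected in the Npas4 and Arc counts was not tested. In 9 cells with both neuronal and neither microglia transcript, Fos was present in 9, at 83.7 to 25153 FPKM. Cell 21, with the highest C1qa (7354 FPKM) and C1qb (8628 FPKM), held Fos at 69.8 and Junb at 312 FPKM.

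The mean of the oligodendrocyte list had correlations of larger size with the genes, Npas4 apart, than the neuronal or the microglia pair. The list holds more genes than a pair, and the order did not hold for every gene with genes detected held constant. Then Junb had 0.39 with the list and -0.41 with the neuronal pair. Nr4a1 had 0.26 and -0.28, and Jun 0.48 and -0.47. The mean of the 10 genes had a correlation of 0.64 with the mean of 10 oligodendrocyte markers, or 0.61 with genes detected held constant. With the means of the neuronal and the microglia lists it had -0.13 and 0.07, or -0.41 and -0.16 with genes detected held constant. All 10 oligodendrocyte markers were above 0.3 with the mean of the genes (0.37 to 0.66). All 10 were positive with Fos (0.30 to 0.71), beside a median of 0.02 for Fos over 8041 genes. By gene, the oligodendrocyte list had 0.68 with Fos, 0.53 with Egr1, 0.50 with Fosb, 0.46 with Arc and -0.07 with Npas4. Holding the oligodendrocyte list constant moved the correlation of the neuronal pair from -0.30 to -0.07 for the mean of the 10 genes and from -0.48 to -0.33 for Fos. The part of oligodendrocyte RNA in the levels of the 10 genes was not tested. Astrocyte markers had a median of 0.14 with the mean of the genes, close to the 0.18 of all genes.

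Other genes of the same response behaved unevenly. Of 21 further immediate early regulators, 5 were detected in at least 50% of cells, and the median detection was 33.9%. Jund, the constitutive Jun gene, was detected in 52 cells, Btg2, an antiproliferative factor, in 46, and Klf6, a zinc finger factor, in 39, whereas Klf2 and Egr3 were found in 7 each and the Fos relative Fosl1 in 3. Of the 17 detected in at least 12 cells, 11 had a correlation above 0.3 with the mean of the 10 genes, beside 20.0% of 8032 genes, and the list median was 0.34 against 0.18 over all genes. With genes detected held constant these medians were 0.24 and -0.02. Feedback inhibitors were similar, with 5 of 12 in at least 50% of cells, a median detection of 47.5% and a median correlation of 0.30 over 10 genes, or 0.18 with genes detected held constant. Nfkbia, which holds back NF-kB, was detected in 46 cells, Zfp36, which destabilises mRNAs, in 39 and Socs3, which limits cytokine signalling, in 32, but the phosphatase gene Dusp4 in 3 and Spry4 in 8.

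Activity-regulated effectors, the proteins through which neurons adapt synapses after activity, had a low median correlation with the genes. Of 18 measured, 7 were in at least 50% of cells, and the median correlation of 14 with the mean of the genes was 0.03. Above 0.3 were 4 of the 14, beside 20.0% of all genes: Sik1 (0.50), a salt-inducible kinase, Gadd45g (0.50) and Gadd45b (0.45), which are stress-response genes, and Cyr61 (0.35), a secreted matrix protein, all named after their values were seen. Rheb and Plk2 were detected in 42 cells and Rgs2 in 41, and Ptgs2 in 3 and Pcsk1 in 2. The list mean had 0.49 with Npas4, or 0.30 with genes detected held constant, and -0.08 with Fos. Upstream kinases and factors, among them Camk2a in 43 cells and Map2k1 in 42, with Elk4 in 12 and Elk1 in 10, had a median correlation of 0.17. Of 9 heat shock genes, 6 were in at least 50% of cells, led by Hsp90aa1 in all 59, Hspa8 in 58 and Hsp90ab1 in 57. The median correlation of 8 of them with the mean of the genes was 0.16, or -0.02 with genes detected held constant. Of these 8, 2 were above 0.3, beside 20.0% of all genes. They were Hspa1a (0.55) and Dnajb1 (0.54), named after their values were seen. The mean of the heat shock list had 0.50, or 0.33 with genes detected held constant. The 8 chemokine and interleukin genes had 0.14 over 6 genes, with Ccl4 in 33 cells and Cxcl2 in 8.

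**Figure D5:**
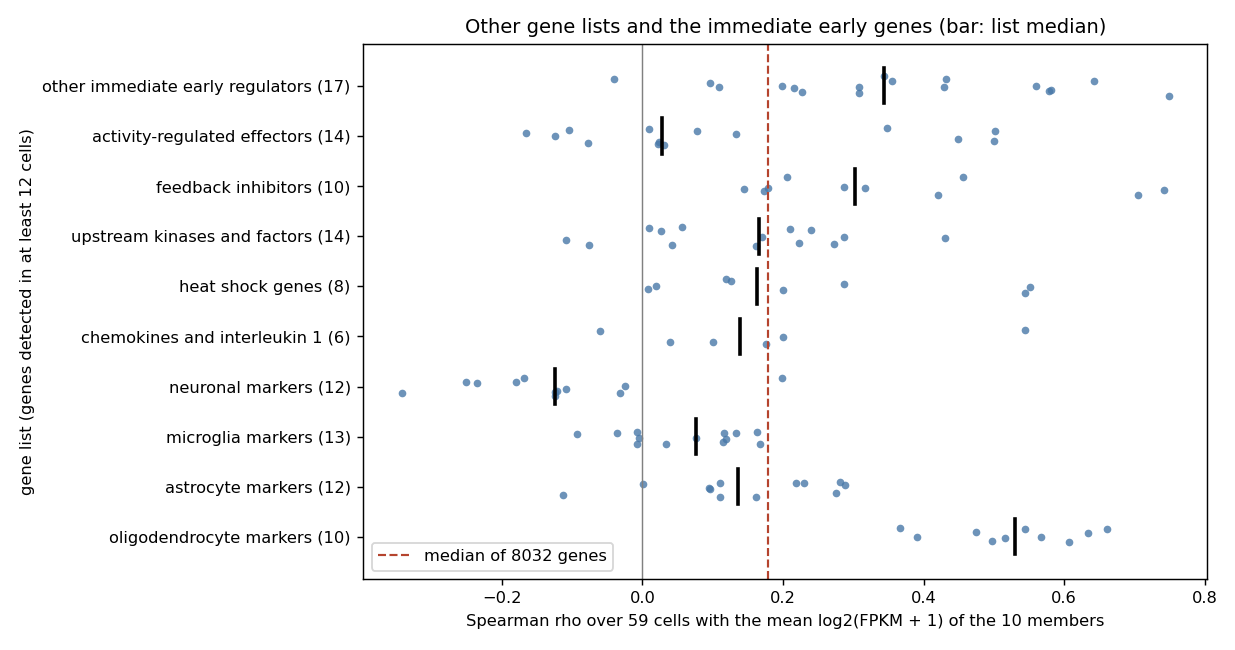
Spearman correlation of each gene of the other lists with the mean log2(FPKM + 1) of the 10 genes over 59 cells, 1 point per gene detected in at least 12 cells, with a bar at each list's median. The dashed line is the median of 8032 genes (0.18), and the oligodendrocyte list (0.53) and the other immediate early regulators (0.34) lie to its right while the neuronal list (-0.12) lies to its left.

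The genes whose pattern was nearest to the mean of the 10 were taken by Spearman correlation over the 59 cells. They were Btg2 (0.75), Zfp36 (0.74), Tnfaip6 (0.71), Socs3 (0.71), Mal (0.66), Dusp10 (0.65), Car2 (0.65), Klf4 (0.64), Opalin (0.63) and Myrf (0.63), where the 95th percentile over 8032 genes was 0.42. Of these, 6 were also among the nearest 10 with genes detected held constant. Mal and Opalin are myelin proteins on the oligodendrocyte list, and Myrf is the myelin regulatory factor. By gene, the nearest outside the 10 were Car2 for Fos (0.76), Zfp36 for Jun (0.74) and Junb (0.67), Mal for Egr1 (0.62), Btg2 for Ier2 (0.69) and Dazap2 for Dusp1 (0.62). Nr4a1 was nearest to Junb at 0.48. Npas4 was nearest to Prmt8 (0.67) and Arc to Vps26a (0.72), detected in 23 and 26 cells.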

How the data were processed

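The values are FPKM per gene and cell in 1 table that the authors deposited. Per the submitters' processing notes, STAR 2.5.3a, featureCounts 1.5.3 and GRCm38 were used. Not given in the sources used here are strandedness, annotation release and handling of reads with several matches, so reads of overlapping or antisense genes cannot be told apart. From these FPKM, detection (1 FPKM or more), log2(FPKM + 1), ranks and Spearman correlations were computed with Python 3.11.15, pandas 2.3.3, numpy 2.4.6 and scipy 1.17.1. A difference on the log2 scale understates that of low genes. The spread over trend is the SD minus the running median over 501 genes sorted by mean. Spike-ins were left out, except where their share of FPKM is given for named cells. Partial correlations hold the number of genes detected constant, on ranks.

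Fragments were recovered from the spacing of low FPKM with exon lengths of GENCODE M21 (19358 genes, 93.6%). A median of 73.2% of values up to 20 fragments came out whole within 0.02, so no count model was used. For Fosb, Junb, Npas4, Nr4a1 and Dusp1 the length was taken from the spacing of the gene's own values, as it differed from the GENCODE length. Median depth was 912996 fragments per cell. At 0, a limit of 3 fragments is given.

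No p-value was computed, since the labels give 1 group and no animals. The 10 genes, lists and alternatives were chosen with earlier results of these data known. Genes named are the 10 members, Snap25, Syt1, C1qa and C1qb, the 3 most and some of the 2 least detected of other lists (1 gene is not reported here), the 10 nearest to the mean and the nearest of each member. Cells are named where they were highest or stood apart, after their values were seen. Simulated data with a planted co-varying set were used to check depth recovery, the ranking by correlation and the median pair correlation. The other steps were not checked in this way.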

Additional observations from a re-analysis of the deposited data

How the results depend on the processing

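Among the alternatives run, the sign changed only for the mean of the 10 genes with the microglia pair. It went from 0.04 to negative values in 4 alternatives, and Arc was not among the relations varied. Of 190 values, 159 were counted as close to the reported one. Close meant within 0.1 for a correlation, inside the interval for a share of cells and inside the gene's quartiles for a median FPKM. For the mean log2 level it meant within the SD over cells of 2.10. The limits for levels are wide, so a Fos median of 2624 against 1160 FPKM counted as close. Dropping the filter on low genes could not change the pairs of members, so that value was fixed in advance. The number of genes detected in at least 50% of cells stayed at 8. Apart from the rescaled medians, the cause of the changes that follow was not tested. The median correlation over the 45 pairs was 0.31 in the 39 cells with at least 500000 fragments and 0.53 for 8 genes without Npas4 and Arc. Fos with the neuronal pair was -0.33 by Pearson, -0.36 with the neuronal list and -0.33 given the oligodendrocyte list. Npas4 was 0.43 with the neuronal list. The mean of the 10 genes with the neuronal pair was -0.46 given genes detected, -0.13 with the list and -0.071 given the oligodendrocyte list. With the microglia pair it was -0.14 given genes detected and -0.14 given the oligodendrocyte list, and with the oligodendrocyte list 0.47 in the 46 cells with at least 2000 genes. Median detection was 28.0% for effectors and 25.4% for upstream genes at 5 FPKM, 59.3% for upstream genes at any value above 0, and 82.6% for heat shock genes in cells with at least 2000 genes. Rescaling each cell without mitochondrial genes and ribosomal RNA gave higher medians for all 8 common genes: Fos 3885, Jun 555, Egr1 512, Dusp1 430, Junb 372, Fosb 267, Nr4a1 225 and Ier2 181 FPKM. Rescaling to a sum of 1000000 over all genes gave 2624 for Fos, 371 for Jun, 313 for Egr1, 282 for Dusp1, 249 for Junb, 171 for Fosb, 117 for Nr4a1 and 96.8 for Ier2, so FPKM levels hold only on the deposited scale. Gene FPKM summed to less than 1000000 in every cell, so both rescalings raise every value above 0. The direction of these changes was therefore fixed in advance.

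Leaving out 1 cell at a time gave 0.40 to 0.47 for the pairs, -0.55 to -0.46 for Fos and 0.28 to 0.37 for Npas4 with the neuronal pair, and -0.36 to -0.26, 0.01 to 0.09 and 0.62 to 0.67 for the mean with the neuronal pair, the microglia pair and the oligodendrocyte list. Leaving out 1 cell or the 3 highest in Fos, taking 8 genes and holding the oligodendrocyte list constant were chosen after seeing the data. No paired analysis was possible because there is 1 group and the numbers only name cells. Absence of Npas4 or Arc is limited by depth in shallow cells.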
